A study of Mus musculus with 58 samples.

Results

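Mouse small-intestinal organoids kept for 96 h with a Mek inhibitor (Mi) were compared with control organoids kept for 96 h in the standard medium, ENR. The comparison rests on 6 of the series' 58 samples, 3 libraries a group, which were chosen by the treatment and time in the sample labels. Organoids are miniature epithelia that grow from intestinal stem cells in a gel and hold the cell types of the crypt and the lower villus. ENR is named for its growth factors EGF, Noggin and R-spondin, and the labels name no other medium for either group. All libraries came from strain Bl/6, source tissue small intestine, and from the bulk cells of whole organoids. RNA was measured by CEL-seq, which counts transcripts near their 3′ end. The labels give neither the compound nor its dose. They do not say whether the replicates came from separate cultures, so the spread between libraries behind the p-values may be technical. That spread was estimated for each gene within all the groups fitted together, not from Mi and ENR alone. Set beside this comparison were 3 libraries of organoids given an EGFR inhibitor for 96 h (Ei), and 3 Mi and 3 ENR libraries taken at 6 h. The fits also held organoids under Wnt and Notch inhibition, alone or with EGFR or Mek inhibition. Those libraries entered the filter, the scaling and the spread, and their levels are not described here.

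Mek is the kinase in the middle of the cascade that runs from the EGF receptor through Ras and Raf to Erk. Erk, once phosphorylated by Mek, switches on transcription factors, D-type cyclins and a set of its own inhibitors, so that the level of those inhibitors follows the activity of the pathway. In the crypt, EGF is a main signal for the division of stem cells and their daughters. The daughters become absorptive enterocytes or one of the secretory types: Paneth cells, which release antimicrobial peptides, goblet cells, which release mucus, enteroendocrine cells, which release hormones, and tuft cells, which sense luminal contents.

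The ENR libraries held 1425565 to 1738425 counts and 12222 to 12625 detected genes, and the Mi libraries held 605964 to 786138 counts and 11926 to 13421 genes. Log expression correlated at 0.976 to 0.977 between the ENR libraries and at 0.937 to 0.952 between the Mi libraries. The labelled tissue was checked against its markers: the 4 markers of the whole epithelium summed to 2595 to 3059 CPM, read counts scaled to a common library total, here without further scaling, in ENR and 3235 to 3853 in Mi. The immune markers Ptprc, Cd3e and Csf1r were at 0 in all 6 libraries, and the 5 stromal markers summed to at most 2.1 CPM in ENR and 11.3 CPM in Mi. The nuclear ribosomal RNA transcript Rn45s took 0.104% to 0.505% of the counts in ENR and 0.618% to 1.316% in Mi. With that transcript left out, an alternative chosen after seeing the data, 1922 genes were called between Mi and ENR, 1876 of them shared with the 1894 called with it.

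Of 8135 genes with enough counts to be tested, edgeR's quasi-likelihood test called 1894 (23.3%) at a Benjamini-Hochberg adjusted p under 0.05. Of these, 933 (11.5%) were higher in Mi and 961 (11.8%) lower, and the median log2 change of all genes tested was 0.02. The 3 Mi libraries lay above all 3 ENR libraries for 20.2% of the genes and below them for 20.7%. The changes were large in part: 186 genes rose and 119 fell by 4-fold or more. In what follows, levels are scaled CPM in the 3 libraries of a group in replicate order, a change is the log2 of Mi over ENR with its standard error (SE), and list counts can be read against those 11.5% and 11.8%. Genes under the filter on low counts are not covered by those counts, and a gene that passed it only through its higher group had to differ, so list counts and medians are descriptions. In bulk libraries fewer cells of a type and less RNA per cell cannot be told apart, which bears on every cell type below.

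The feedback inhibitors of Erk were low after 96 h of the inhibitor. Dusp6, the phosphatase that switches Erk off in the cytoplasm, lies on chromosome 10 at 99263231 to 99267489 (mm10, GENCODE M21). Dusp6 read 71.9, 80.9 and 57.1 CPM in ENR and 4.84, 4.63 and 6.57 CPM in Mi. The groups lay far apart, and the change was -3.65 (SE 0.39, adjusted p = 1.2e-08), a 12.6-fold fall. Spred1, a membrane-bound brake on Ras and Raf, went from 40.6, 40.8 and 32.3 CPM to 8.47, 3.09 and 14.5 CPM, a 4.17-fold fall (adjusted p = 0.00027). Spry1, another brake on receptor signalling, fell 1.91-fold (adjusted p = 0.0028). Only 4 of the list's 12 members passed the filter on low counts, and 3 of the 4 fell. The fourth, Errfi1, which binds and inhibits the EGF receptor itself, read 25.6, 14.8 and 21.9 CPM in ENR and 20.6, 32.4 and 36.8 CPM in Mi, with overlapping groups (adjusted p = 0.25). Dusp4, the nuclear Erk phosphatase, was below the filter with 66 summed counts in ENR and 1 in Mi.

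Transcription factors and early genes that Erk induces moved in both directions. Phlda1, an early gene of growth factor signalling, read 345, 289 and 360 CPM in ENR against 122, 113 and 105 CPM in Mi (2.92-fold lower, adjusted p = 1.7e-08). Fos went from 29.2, 23.9 and 30.6 CPM to 10.9, 3.09 and 1.31 CPM, and Egr1 from 17.8, 21.8 and 19.0 CPM to 4.84, 1.54 and 7.89 CPM. Both fell, Fos 5.09-fold (adjusted p = 3.9e-05) and Egr1 3.87-fold (adjusted p = 0.0022), and neither showed overlap between the groups. Myc, a driver of growth and of ribosome production, fell 2.35-fold, from 145 to 163 CPM in ENR to 58.7 to 69.7 CPM in Mi (adjusted p = 2.7e-05). Jun, the partner of Fos in the AP-1 factor, went the other way. It read 203, 229 and 250 CPM in ENR and 870, 743 and 790 CPM in Mi, a 3.53-fold rise (adjusted p = 5.4e-09). Of 17 members on this list, 10 were tested, 5 fell and 1 rose, with a median change of -0.60. The fifth fall, Maff, was the least stable, since its adjusted p of 0.022 became 0.15 on leaving out ENR replicate 1, 0.11 for Mi replicate 2 and 0.10 for Mi replicate 3.

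Among the receptors, kinases and ligands of the pathway, some tested genes fell and none rose. None of 5 tested ERBB receptors and receptor inhibitors passed the test. Egfr itself read 15.7, 12.0 and 13.8 CPM in ENR and 18.2, 18.5 and 11.8 CPM in Mi, with overlapping groups (change 0.22, SE 0.36). Of 16 tested members of the cascade from Shc1 to the ribosomal S6 kinases, 3 fell. Map2k1, which encodes Mek1, went from 179, 148 and 156 CPM to 60.5, 64.9 and 76.3 CPM (2.39-fold lower, adjusted p = 2e-06). Rps6ka1, a kinase that Erk phosphorylates, fell 1.85-fold (adjusted p = 0.0061), and the fall of its relative Rps6ka3 (1.49-fold, adjusted p = 0.043) was lost in 7 alternative analyses, up to an adjusted p of 0.30. Of 5 tested EGF family ligands 1 fell. Areg, amphiregulin, read 276 to 287 CPM in ENR and 234 to 300 CPM in Mi, and did not pass the test. Btc, betacellulin, fell 1.71-fold (adjusted p = 0.016), with an adjusted p of 0.069 on leaving out ENR replicate 2, 0.093 for Mi replicate 2 and 0.076 for Mi replicate 3.

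**Figure D1:**
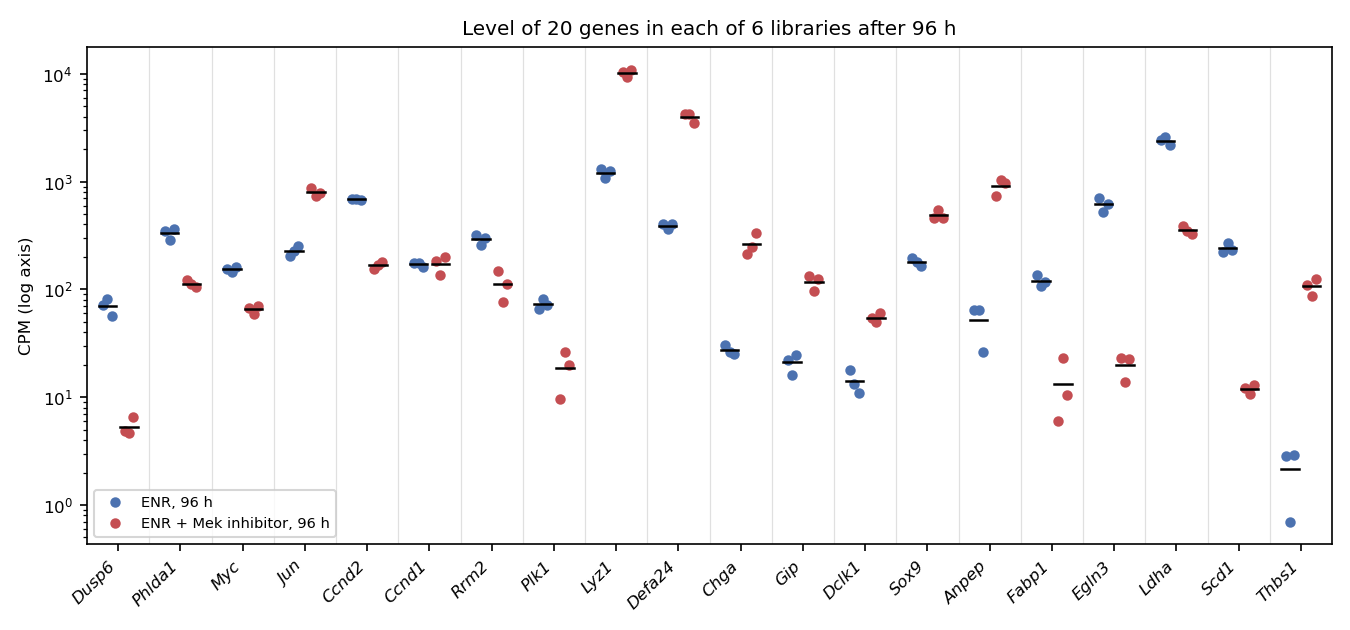
Scaled CPM on a log axis for 20 genes in each ENR and Mi library at 96 h, with 1 point a library and a black bar at the group mean. Dusp6, Ccnd2, Egln3 and Scd1 sit lower in all 3 Mi libraries, Lyz1, Chga, Dclk1 and Thbs1 sit higher, and the Ccnd1 points overlap.

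Genes of cell division fell, and those of late division fell as a group. Ccnd2, a D-type cyclin that starts the G1 phase (chromosome 6, 127125162 to 127152193), read 692, 693 and 676 CPM in ENR and 156, 168 and 181 CPM in Mi. That is a 4.07-fold fall with closely spaced libraries (change -2.03, SE 0.21, adjusted p = 5.2e-09). Its sister Ccnd1 read 177, 176 and 161 CPM in ENR and 183, 136 and 201 CPM in Mi, with overlapping groups (change 0.02, SE 0.17, adjusted p = 0.94). Plk1, a kinase that drives entry into and exit from mitosis (chromosome 7, 122159439 to 122169873), went from 65.5, 81.6 and 72.1 CPM to 9.69, 26.3 and 19.7 CPM. It fell 4.01-fold (adjusted p = 2.9e-05). The motor protein gene Cenpe, which moves chromosomes to the spindle equator, fell 3.41-fold, Cdk1, the kinase of mitotic entry, 2.79-fold and Top2a, which untangles replicated DNA, 2.24-fold. In all, 22 of 24 tested members of the G2 and mitosis list fell and none rose, with a median change of -1.27, and the lowest count over the alternative analyses was 17.

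Fewer S phase genes passed the test. Of 27 tested members 4 fell and none rose, with a median change of -0.27. Tk1, thymidine kinase, read 107, 82.3 and 102 CPM in ENR and 47.2, 41.7 and 38.1 CPM in Mi (2.28-fold lower, adjusted p = 0.00015). Hells, a chromatin remodeller of replicating cells, fell 1.75-fold (adjusted p = 0.0076, or 0.12 in the thinned libraries). Rrm2, the small subunit of ribonucleotide reductase, went from 258 to 317 CPM to 77.2 to 148 CPM (2.56-fold lower, adjusted p = 0.00063), although DESeq2 gave it an adjusted p of 0.060. The clamp protein gene Pcna fell 1.47-fold (adjusted p = 0.023), a call that was lost without ENR replicate 1 (adjusted p = 0.12), Mi replicate 1 (0.050) or Mi replicate 3 (0.10). Cdc45 and Mcm5 of the replicative helicase had lower values in Mi, at adjusted p-values of 0.063 and 0.12, and were not called. The followed marker Mki67 read 213, 287 and 306 CPM in ENR and 126, 94.2 and 114 CPM in Mi, with no overlap.

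The genes listed as brakes on division mostly did not rise. Cdkn1a, which encodes the kinase inhibitor p21, read 622, 575 and 737 CPM in ENR and 275, 226 and 195 CPM in Mi, a 2.78-fold fall (adjusted p = 2.2e-07). Rb1, the retinoblastoma protein that holds back E2F factors, fell 3.35-fold (adjusted p = 0.00026) and Cdkn2b, another kinase inhibitor, 2.65-fold (adjusted p = 0.00049). Btg2, an antiproliferative gene, was the 1 member that rose, from 68.9 to 91.1 CPM to 149 to 162 CPM (1.91-fold, adjusted p = 0.00029). Tob1, an antiproliferative relative of Btg2, fell 1.72-fold (adjusted p = 0.023), which became 0.11 on leaving out ENR replicate 1, 0.055 for ENR replicate 2 and 0.20 for Mi replicate 1. Of 10 tested members, 4 fell and 1 rose.

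Several crypt stem cell markers rose, and Lgr5 did not pass the test. Lgr5, the R-spondin receptor of crypt stem cells, read 159, 142 and 164 CPM in ENR and 173, 219 and 191 CPM in Mi, and was not called (change 0.32, SE 0.17, adjusted p = 0.18). Ascl2, a transcription factor of the same cells, read 126, 122 and 134 CPM in ENR and 281, 227 and 304 CPM in Mi (2.12-fold higher, adjusted p = 5.8e-05). Smoc2, a secreted matrix protein, rose 1.68-fold, Rgmb, a BMP co-receptor, 2.26-fold and Slc12a2, a chloride cotransporter, 1.79-fold. Of 13 tested members of the stem list 5 rose and 1 fell. The fifth rise, Bmi1 (2.05-fold, adjusted p = 0.046), was lost in 9 alternative analyses, up to an adjusted p of 0.17. The 1 fall, the water channel gene Aqp4 (1.89-fold, adjusted p = 0.0073), had an adjusted p of 0.052 without ENR replicate 1 and 0.12 after the libraries were thinned to equal totals.

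Wnt targets split. Sox9, a transcription factor of the crypt base, read 194, 181 and 166 CPM in ENR and 455, 547 and 455 CPM in Mi, a 2.69-fold rise (adjusted p = 6e-07). Nkd1, an inhibitor of Wnt signalling that the pathway itself induces, went from 7.11, 4.22 and 4.62 CPM to 61.7, 40.2 and 31.6 CPM (8.24-fold higher, adjusted p = 2.2e-07). Rnf43, a ligase that removes Wnt receptors, rose 2.52-fold (adjusted p = 0.00079). Ephb2, a guidance receptor of crypt cells, fell 3.21-fold, from 54.8 to 88.9 CPM to 21.6 to 25 CPM (adjusted p = 1.4e-05). Of 11 tested members 4 rose, Ascl2 among them, and 2 fell, Ephb2 and Myc. In the Notch list Hes1, a repressor of secretory fate, rose 1.77-fold, from 398 to 509 CPM to 751 to 859 CPM (adjusted p = 0.003). Nrarp, an inhibitor that Notch induces, fell 2.74-fold (adjusted p = 0.0013). Dll4, a Notch ligand, and Gfi1, a factor of Paneth and goblet precursors, rose 2.91-fold and 2.57-fold, but the thinned libraries gave them adjusted p-values of 0.099 and 0.051. Atoh1, the master factor of the secretory lineage, did not pass the test (change 0.70, SE 0.34, adjusted p = 0.14).

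**Figure D2:**
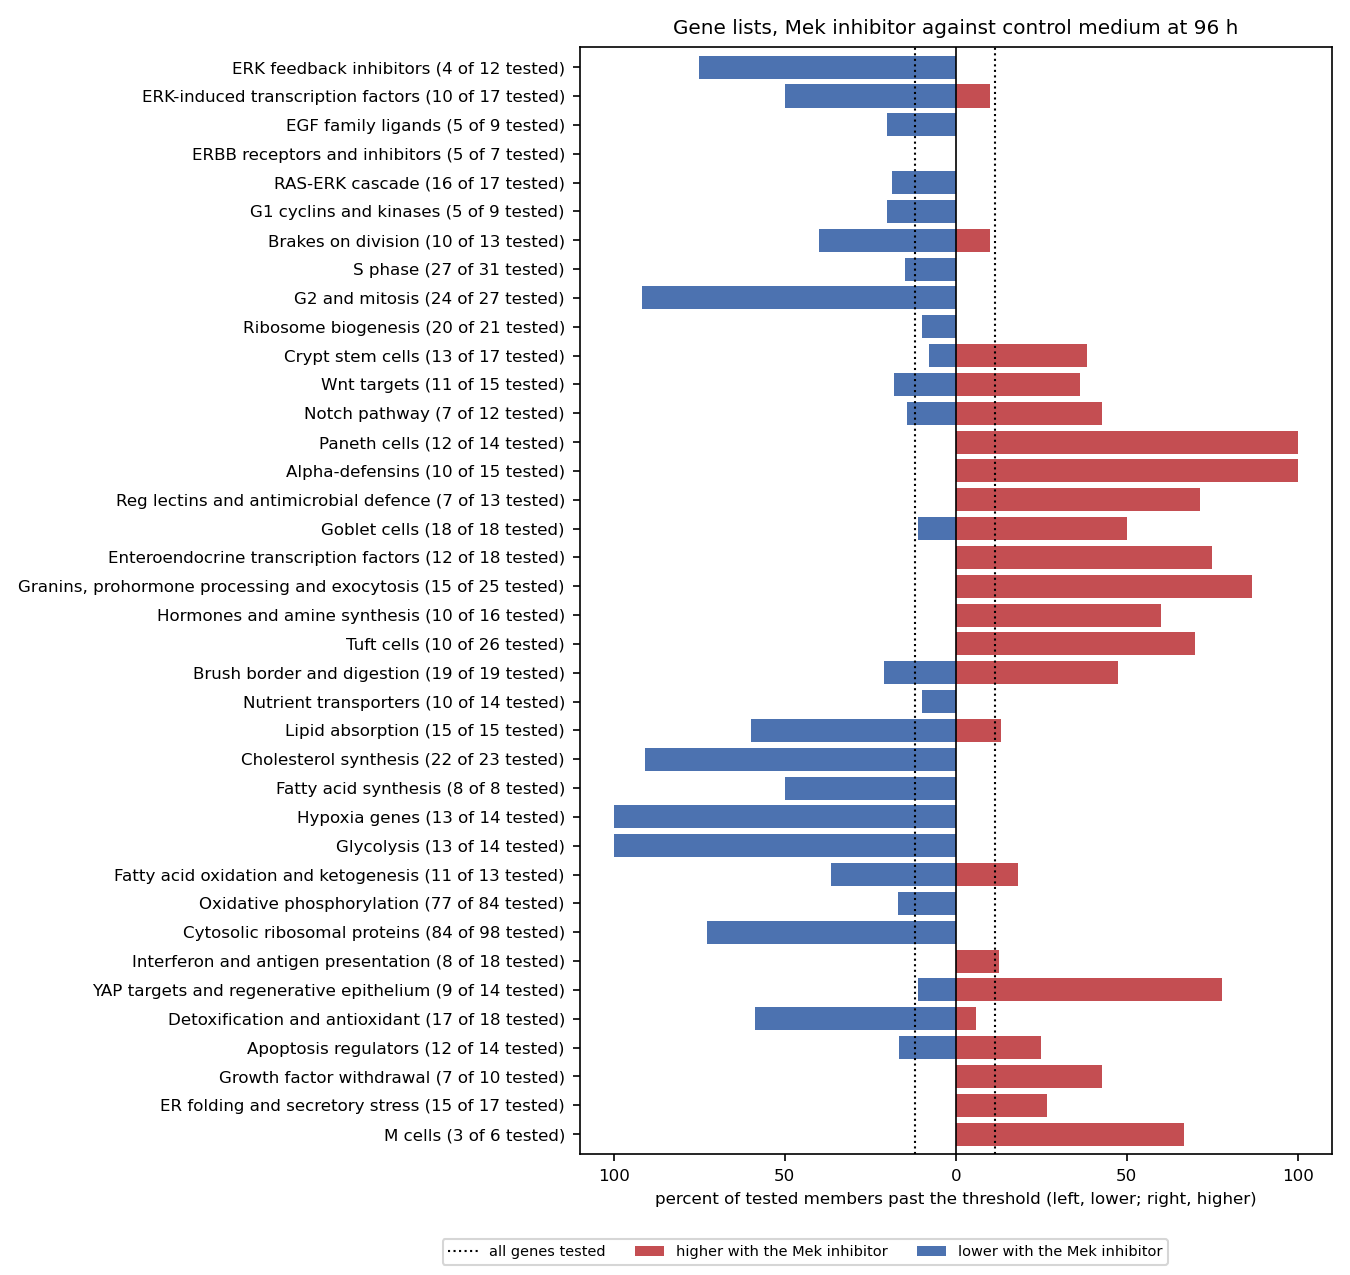
Percent of the tested members of each gene list that were called higher or lower in Mi than in ENR at 96 h. The dotted lines mark the same percentages over all 8135 genes tested, 11.5 higher and 11.8 lower, and the hypoxia and glycolysis lists stand at the far end of the falls, the Paneth and defensin lists at the far end of the rises.

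Paneth cell products rose together and took up a large share of the RNA. Lyz1, lysozyme, read 1315, 1069 and 1242 CPM in ENR and 10451, 9432 and 10935 CPM in Mi. Itln1, an intelectin that binds microbial sugars, went from 1299, 1271 and 1550 CPM to 15439, 12296 and 12636 CPM (9.79-fold higher, adjusted p = 3.3e-12). Neither gene had overlapping groups, and each Mi library was above every ENR library by several times. Mptx2, a pentraxin of Paneth cells, rose 29.6-fold (adjusted p = 6.5e-14), Mmp7, the protease that activates the defensins, 8.97-fold (adjusted p = 2.1e-11), and Clps, colipase, 7.95-fold (adjusted p = 3.2e-11). All 12 tested members of the 14 on the list rose, with a median change of 3.04.

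The alpha-defensins, the pore-forming peptides of Paneth granules, behaved alike. Defa24 read 404, 361 and 402 CPM in ENR and 4276, 4240 and 3509 CPM in Mi (10.3-fold higher, adjusted p = 6.9e-13). Defa22 rose 17.0-fold, from 12.7 to 24.9 CPM to 303 to 373 CPM (adjusted p = 3.8e-14). Of 15 members 10 passed the filter and 10 rose, with a median change of 3.59. The 15 genes together took 0.0864%, 0.0669% and 0.0758% of the counts in ENR and 0.798%, 0.866% and 0.825% in Mi. With the Paneth list they held 4.92%, 4.5% and 4.64% of the Mi libraries against 0.427% to 0.5% of the ENR libraries. Defensin genes are near-identical copies, so the split of reads between single members is uncertain. Scaling the libraries without these 29 genes moved the median change of all genes from 0.02 to -0.03.

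Other antimicrobial and injury-linked lectins rose as well. Reg3b, a C-type lectin that kills bacteria (chromosome 6, 78370657 to 78373466), had 0 counts in each ENR library and 73.9, 57.2 and 72.3 CPM in Mi. Set against a floor of 3 counts over the ENR group it was at least 104-fold higher. Reg3g, its close relative, read 13.5, 7.73 and 18.5 CPM in ENR and 143, 142 and 155 CPM in Mi (10.8-fold, adjusted p = 3.7e-09). Reg4, a lectin of deep crypt secretory and enteroendocrine cells, rose 3.84-fold, Reg1 2.51-fold, and Retnlb, a goblet cell product active against bacteria and worms, rose 2.54-fold. Of 7 tested members of the 13 on this list, 5 rose and none fell.

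Many genes of the enteroendocrine lineage rose, from its factors to its hormones, though not all. Neurog3, the factor that commits cells to it, read 47.7, 31.6 and 45.6 CPM in ENR and 154, 91.1 and 117 CPM in Mi. Sox4, which acts before it, went from 71.9, 75.2 and 60.6 CPM to 258, 260 and 185 CPM (3.38-fold higher, adjusted p = 4.3e-08). Factors of later steps rose too: Pax4 12.6-fold (adjusted p = 1.5e-05), Rfx6 7.18-fold (adjusted p = 7.5e-05) and Fev, a factor of serotonin cells, 4.01-fold (adjusted p = 4e-05). Of 18 factors listed 12 passed the filter, 9 of these rose and none fell, with a median change of 1.91.

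The secretory machinery of these cells followed. Chgb, a granin that packs hormone granules, read 314, 217 and 284 CPM in ENR and 1371, 1387 and 1553 CPM in Mi (5.28-fold, adjusted p = 8.8e-11). Chga, another granin, went from 30.6, 26.0 and 25.4 CPM to 214, 247 and 333 CPM. Ptprn2, a granule membrane protein, rose 7.92-fold, Cpe, which trims prohormones, 4.55-fold and Cplx2, a regulator of vesicle fusion, 10.7-fold. Of 25 members 15 passed the filter, 13 rose and none fell, with a median change of 2.21.

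Hormones rose unevenly. Gip, the incretin of K cells (chromosome 11, 96024545 to 96030831), read 22.1, 16.2 and 24.8 CPM in ENR and 132, 95.8 and 126 CPM in Mi (5.56-fold, adjusted p = 5.5e-11). Sst, somatostatin, went from 9.96, 12.0 and 20.8 CPM to 98.1, 72.6 and 78.9 CPM (5.69-fold, adjusted p = 2.8e-08). In the serotonin pathway Tph1, its rate-limiting enzyme, rose 3.76-fold (adjusted p = 2.7e-05) and Slc18a1, the vesicle transporter, 2.35-fold (adjusted p = 0.0003). Tac1, the substance P precursor, rose 3.98-fold (adjusted p = 2.3e-06). The rise of Ghrl, ghrelin (2.24-fold, adjusted p = 0.011), was lost without ENR replicate 2 (adjusted p = 0.059) or Mi replicate 1 (0.068). In all 6 of 10 tested members rose, none fell and 4 were not called, while 6 further members were under the filter and had no test. Changes of the tested members ran from -1.44, which was not called, to 2.51, with a median of 1.2.

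Tuft cell genes also rose from low levels. Dclk1, a kinase that marks tuft cells, read 17.8, 13.4 and 11.0 CPM in ENR and 54.5, 49.4 and 60.5 CPM in Mi. Rgs13, a regulator of G protein signals, rose 6.01-fold (adjusted p = 1.1e-06) and Trpm5, the cation channel of taste and tuft cells, 4.53-fold (adjusted p = 0.0001). Fyb and Avil rose 6.98-fold and 6.07-fold. All of these stood at under 25 CPM in ENR, and 16 of the 26 listed genes were under the filter or absent from the files. Of the 10 that were tested 7 rose and none fell.

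Goblet cell genes divided into a larger group that rose and a smaller one that fell. Muc2, the gel-forming mucin, read 196, 162 and 132 CPM in ENR and 355, 383 and 400 CPM in Mi. Ccl9, a chemokine, went from 7.83, 6.33 and 13.3 CPM to 105, 72.6 and 78.9 CPM (9.05-fold, adjusted p = 3.6e-10), and Sytl2, a vesicle docking protein, rose 4.04-fold (adjusted p = 4.5e-05). Guca2a, the hormone guanylin, rose 1.87-fold (adjusted p = 0.00037). Zg16, a lectin that keeps bacteria off the mucus (chromosome 7, 127050156 to 127087328), went the other way. It read 96.8, 106 and 148 CPM in ENR and 20.6, 21.6 and 31.6 CPM in Mi, a 4.73-fold fall (adjusted p = 2.1e-06). Clca1, a protease that processes the mucus, fell 4.70-fold, from 39.4 to 49.8 CPM to 3.94 to 18.2 CPM (adjusted p = 0.00019). All 18 members were tested, 9 rose and 2 fell, with a median change of 0.33.

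The absorptive genes did not move as one. Anpep, a brush border peptidase, read 64.7, 64.7 and 26.0 CPM in ENR and 734, 1030 and 976 CPM in Mi (17.8-fold higher, adjusted p = 8.3e-12). Alpi, the alkaline phosphatase of mature enterocytes, moved the opposite way, from 630, 540 and 539 CPM to 146, 185 and 106 CPM. Krt20, a keratin of the villus, fell 2.92-fold (adjusted p = 4.1e-05), whereas the peptidase genes Mep1a and Enpep rose 3.08-fold and 2.90-fold. Ada, adenosine deaminase, had 45 counts over the ENR group and 1 over the Mi group, a ratio of 22 with a 95% counting interval of 3.76 to 890. Of 19 brush border genes, 9 rose and 4 fell. The fourth fall was Klf4, a factor of differentiated epithelium (1.91-fold, adjusted p = 0.0021). On leaving out ENR replicate 1 the number that rose was 4, for ENR replicate 2 it was 5, and for Mi replicate 1 or Mi replicate 2 it was 4.

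Genes that carry dietary fat fell in larger number. Fabp1, the fatty acid binding protein of proximal enterocytes (chromosome 6, 71199827 to 71205023), read 137, 108 and 116 CPM in ENR and 6.05, 23.2 and 10.5 CPM in Mi. The groups did not overlap, and the fall was 9.38-fold (change -3.23, SE 0.31, adjusted p = 1.8e-09). Mttp, which loads lipid onto apolipoprotein B, fell 2.93-fold (adjusted p = 1.8e-05), Apoa4 3.92-fold (adjusted p = 0.0003) and Npc1l1, the cholesterol importer, 2.46-fold (adjusted p = 7.5e-05). Apob, the backbone of the chylomicron, rose 1.99-fold, from 43.4 to 63.3 CPM to 85.5 to 142 CPM (adjusted p = 0.00027). Cd36, a fatty acid transporter, rose too, from 11 to 24 summed counts (4.23-fold, adjusted p = 0.0039). All 15 members were tested, 9 fell and 2 rose, and the median change was -1.24. Of 10 tested nutrient transporters 1 fell, the sodium-glucose carrier Slc5a1 (1.63-fold, adjusted p = 0.009, or 0.052 without Mi replicate 1).

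Lipid synthesis was low after 96 h. Hmgcs1, which makes the first dedicated precursor of cholesterol, read 916, 1000 and 966 CPM in ENR and 272, 287 and 317 CPM in Mi (3.29-fold lower, adjusted p = 1e-09). Lss, which closes the sterol rings, fell 4.41-fold (adjusted p = 1.2e-07). Of 23 cholesterol genes 22 were tested, 20 fell and none rose, with a median change of -1.51. Among the fatty acid genes the desaturases moved furthest. Scd1 (chromosome 19, 44394455 to 44407879) read 222, 271 and 234 CPM in ENR and 12.1, 10.8 and 13.1 CPM in Mi, a 19.8-fold fall (adjusted p = 1.3e-13). Scd2 went from 2291, 2490 and 2299 CPM to 341, 344 and 296 CPM (7.21-fold lower, adjusted p = 1.1e-11), and Me1, which supplies NADPH, fell 4.65-fold (adjusted p = 6.6e-09). Fasn, fatty acid synthase itself, had lower values that did not pass the test (change -0.67, SE 0.29, adjusted p = 0.095). Elovl6, an elongase, was the fourth of 8 members to fall (3.36-fold, adjusted p = 2.2e-05).

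The genes that cells switch on in low oxygen fell further than any other list described here, by median. Low oxygen stabilises the factor HIF-1, which binds a short core in the promoters of its targets. Egln3, a prolyl hydroxylase that marks HIF for destruction and is itself a HIF target, lies on chromosome 12 at 54178981 to 54203860. Egln3 read 704, 520 and 621 CPM in ENR and 23.0, 13.9 and 22.4 CPM in Mi. Bnip3, a mitophagy receptor, went from 327, 311 and 426 CPM to 27.8, 26.3 and 21 CPM (14.1-fold lower, adjusted p = 8.3e-13). Neither gene had any overlap between groups. Ankrd37, a small ankyrin protein gene, fell 14.9-fold, from 62.9 to 74.7 CPM to 1.31 to 8.47 CPM (adjusted p = 3.5e-08). Car9, the carbonic anhydrase that exports acid, fell 12.5-fold (adjusted p = 2.6e-12), Slc16a3, the lactate exporter, 15.1-fold (adjusted p = 4.7e-06), and Pdk1, which closes the mitochondrial entry of pyruvate, 4.86-fold (adjusted p = 5.8e-08). All 13 tested members of the 14 on the list fell, with a median change of -3.33.

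The promoter windows of 3 of these genes are printed here because they hold the core that HIF binds, ACGTG or GCGTG, searched on both strands. Each window runs from 250 bases before to 50 bases after the RefSeq start (GRCm38.p6), on the gene's own strand, and capitals mark the core on either strand. The windows are Egln3 at chr12:54203825-54204124, Bnip3 at chr7:138909457-138909756 and Ankrd37 at chr8:45999801-46000100, all on the minus strand.
Egln3: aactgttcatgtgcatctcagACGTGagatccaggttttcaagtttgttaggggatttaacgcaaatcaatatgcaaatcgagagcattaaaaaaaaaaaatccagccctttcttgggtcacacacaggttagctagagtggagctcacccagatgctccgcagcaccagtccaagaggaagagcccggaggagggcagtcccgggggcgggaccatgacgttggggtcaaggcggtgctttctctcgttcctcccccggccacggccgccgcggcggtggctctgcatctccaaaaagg
Bnip3: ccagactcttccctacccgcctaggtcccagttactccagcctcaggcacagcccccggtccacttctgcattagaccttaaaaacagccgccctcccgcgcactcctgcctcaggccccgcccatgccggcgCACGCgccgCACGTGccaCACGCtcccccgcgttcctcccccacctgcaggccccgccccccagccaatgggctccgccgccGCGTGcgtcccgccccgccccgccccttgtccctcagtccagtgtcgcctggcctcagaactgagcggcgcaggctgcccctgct
Ankrd37: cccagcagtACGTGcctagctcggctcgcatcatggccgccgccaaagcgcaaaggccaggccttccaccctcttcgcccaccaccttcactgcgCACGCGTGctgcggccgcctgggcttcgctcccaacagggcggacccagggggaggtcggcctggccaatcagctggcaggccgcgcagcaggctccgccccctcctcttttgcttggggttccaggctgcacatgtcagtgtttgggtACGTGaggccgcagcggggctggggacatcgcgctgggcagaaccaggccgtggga
The window held 1 match in Egln3, 5 in Bnip3 and 4 in Ankrd37, where a palindromic CACGTG counts on both strands. A window with the core was present for 13 of 13 hypoxia genes that matched the RefSeq table and for 12 of 14 glycolysis genes, against 46.7% of 27018 genes. The hypoxia list was made of genes known to respond to low oxygen, and the 27018 genes include ones not expressed here. These shares are therefore no test. A match describes the letters only and does not show that a factor binds there.

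Glycolysis fell in step. Ldha, which turns pyruvate into lactate, read 2420, 2585 and 2193 CPM in ENR and 387, 349 and 325 CPM in Mi (6.78-fold lower, adjusted p = 2e-12). Pgk1 went from 1655, 1506 and 1671 CPM to 260, 230 and 184 CPM (7.15-fold lower, adjusted p = 4.2e-13). Gapdh, often taken as a constant reference, read 5541, 4177 and 5896 CPM in ENR and 1091, 1003 and 1054 CPM in Mi. It fell 4.96-fold (adjusted p = 3.3e-12). Aldoa fell 6.19-fold, Pfkp, a committing step of the pathway, 5.60-fold and Pgam1 3.65-fold. All 13 tested members of 14 fell, with a median change of -2.31, and the list's summed level went from 18388 to 19937 CPM in ENR to 4219 to 5053 CPM in Mi. Several of these genes have processed pseudogenes, so reads may be split among copies.

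**Figure D3:**
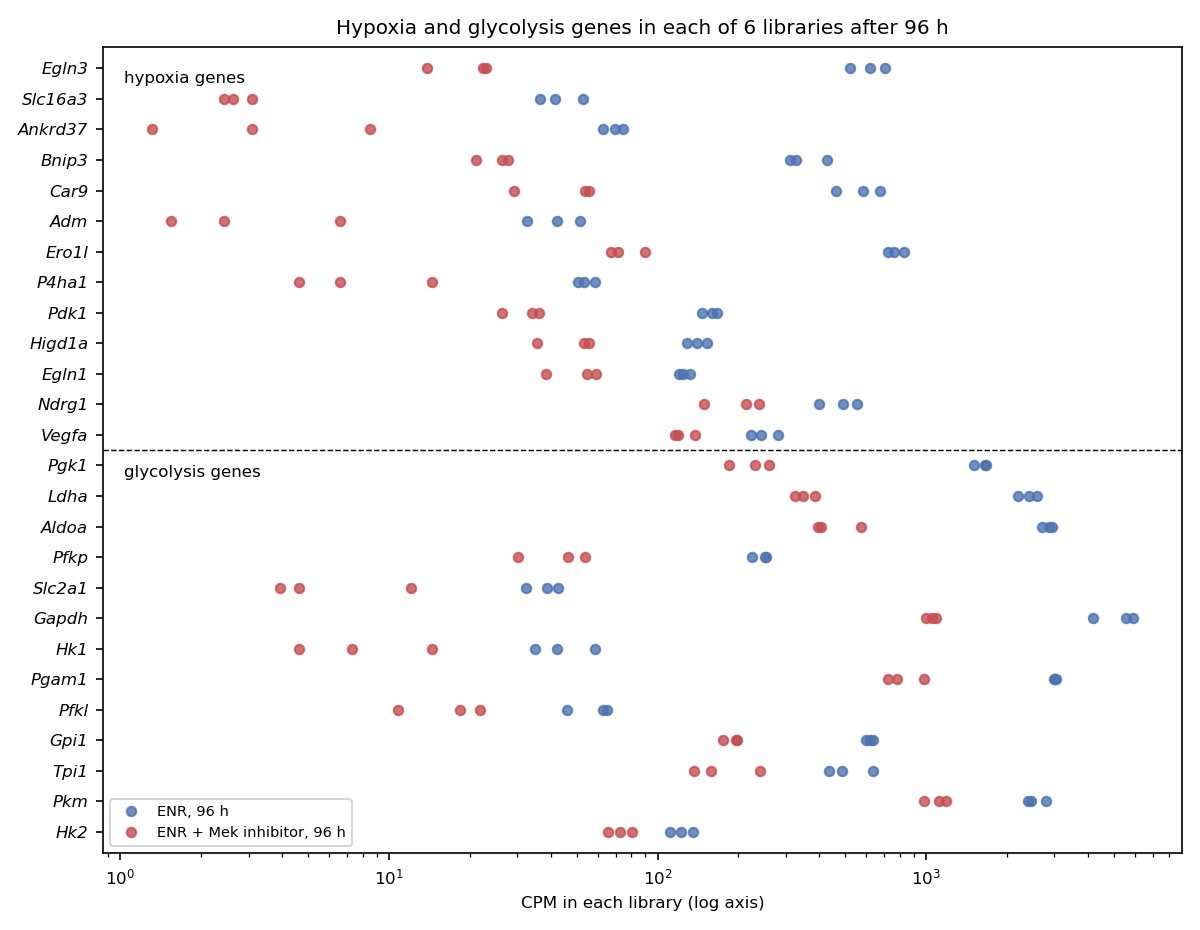
Scaled CPM on a log axis for the 13 tested hypoxia genes and the 13 tested glycolysis genes in each library at 96 h, with 1 point a library. The 3 Mi points lie below the 3 ENR points for the genes named in the text, from 23.0, 13.9 and 22.4 CPM for Egln3 to 1091, 1003 and 1054 CPM for Gapdh.

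Few mitochondrial genes passed the test. Of 77 tested subunits and assembly factors of oxidative phosphorylation, 13 fell and none rose, with a median change of -0.16. That number dropped to 6 on leaving out ENR replicate 1, 5 for ENR replicate 3, 5 for Mi replicate 2 and 6 for Mi replicate 3. Uqcrfs1, the iron-sulfur subunit of complex III, fell 1.5-fold, from 503 to 627 CPM to 367 to 390 CPM (adjusted p = 0.0074). In fatty acid oxidation Hadhb, a subunit of the trifunctional protein, read 434, 378 and 374 CPM in ENR and 550, 576 and 505 CPM in Mi (1.37-fold higher, adjusted p = 0.024). Acadl, an acyl-CoA dehydrogenase, fell 1.74-fold (adjusted p = 0.0025). Of 11 tested members 2 rose and 4 fell, and the number that fell was 2 without ENR replicate 2, ENR replicate 3 or Mi replicate 3 and 1 without Mi replicate 1. The number that rose was 1 without ENR replicate 2, ENR replicate 3, Mi replicate 1 or Mi replicate 2.

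Ribosomal protein genes fell by a small amount in large number. The 98 genes held 15.0%, 14.9% and 15.5% of the counts in ENR and 11.3%, 10.3% and 9.82% in Mi. Rpl11 read 1983, 2020 and 1869 CPM in ENR and 1226, 1120 and 1026 CPM in Mi (1.74-fold lower, adjusted p = 0.00021). Of 84 tested, 61 fell and none rose, with a median change of -0.63, and 41 fell without Mi replicate 3. These genes also have many pseudogene copies. The factors that build ribosomes in the nucleolus showed a median change of -0.16, and 2 of 20 tested fell. Npm1, nucleophosmin, read 1960, 2044 and 2165 CPM in ENR and 1266, 1458 and 1270 CPM in Mi (adjusted p = 0.0074), whereas the fall of Ncl (adjusted p = 0.042) was lost on leaving out any 1 of the 6 libraries, with adjusted p-values up to 0.12.

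Targets of the Hippo effector YAP and genes of regenerating epithelium rose. YAP acts through TEAD factors and is active in the intestine after injury. Thbs1, a matrix glycoprotein and YAP target (chromosome 2, 118111876 to 118127133), read 2.85, 0.703 and 2.89 CPM in ENR and 110, 86.5 and 124 CPM in Mi. Ankrd1, a muscle-type ankyrin protein gene used as a YAP reporter, went from 1.42, 0.703 and 6.35 CPM to 71.4, 98.9 and 72.3 CPM (25-fold, adjusted p = 3.9e-11). Cyr61, a secreted matrix protein, read 18.5, 17.6 and 19.6 CPM in ENR and 114, 116 and 129 CPM in Mi (6.37-fold, adjusted p = 4.1e-11). None of these showed overlap between the groups. Clu, clusterin, which marks the revival stem cells of damaged intestine in mice, rose 17.0-fold, from 9.14 to 14.2 CPM to 171 to 204 CPM (adjusted p = 1.8e-13). Amotl2, a partner and target of YAP, rose 3.19-fold (adjusted p = 2.3e-05) and Anxa1, a resolver of inflammation, 2.20-fold (adjusted p = 0.00085). Of 14 members 9 were tested, 7 rose and 1 fell. The fall was that of Ly6a, the surface protein Sca-1 (2.11-fold, adjusted p = 0.0067), and the number of falls was 0 without ENR replicate 3.

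The promoters of Ankrd1 and Cyr61 are printed because both genes rose and both windows hold the TEAD core GGAATG, searched on both strands and marked in capitals on either strand. They lie at chr19:36119795-36120094 and chr3:145649936-145650235, on the minus strand, in the same RefSeq build and span as above.
Ankrd1: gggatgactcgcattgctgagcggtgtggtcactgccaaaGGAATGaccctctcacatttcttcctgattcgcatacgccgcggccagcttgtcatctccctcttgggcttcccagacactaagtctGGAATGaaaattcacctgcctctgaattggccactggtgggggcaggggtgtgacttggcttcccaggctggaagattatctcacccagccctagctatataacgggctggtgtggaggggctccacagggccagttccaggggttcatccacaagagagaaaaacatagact
Cyr61: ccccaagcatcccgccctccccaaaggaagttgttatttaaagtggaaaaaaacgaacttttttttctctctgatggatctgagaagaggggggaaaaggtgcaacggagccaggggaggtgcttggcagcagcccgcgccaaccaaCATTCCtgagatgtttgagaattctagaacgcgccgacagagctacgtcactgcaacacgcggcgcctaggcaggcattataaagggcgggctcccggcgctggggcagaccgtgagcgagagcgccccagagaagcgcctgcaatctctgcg
The core occurred 2 times in the Ankrd1 window and 1 time in that of Cyr61. It was present for 7 of 8 listed genes that matched the RefSeq table and for 16.6% of all genes, again as a description of letters and no test. Searches on both strands for other motifs, each as 1 exact string, found none in other lists described above. The 1 exact form of the sterol response element that was searched was in 0 of 16 matched cholesterol synthesis genes. It was in 0.0999% of all genes. For ETS factors the string was CCGGAAG. It was in 0 of 9 matched feedback inhibitors of Erk and 0 of 10 matched genes that Erk induces, against 9.93% of all genes. Of those matched genes only 3 of the 9 and 3 of the 10 were called, Jun among them as a rise. Phlda1, Myc and Egr1, which fell, had no window. No match says only that the exact string searched is not in the windows. Shorter strings and strings that differ by a letter were not searched, so other forms of these motifs may be present.

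Detoxification genes fell. Gstm3, a glutathione transferase, read 1574, 2953 and 1784 CPM in ENR and 442, 382 and 262 CPM in Mi (5.81-fold lower, adjusted p = 2.5e-08). Gclc, the rate-limiting enzyme of glutathione synthesis, fell 2.77-fold, from 477 to 548 CPM to 168 to 207 CPM (adjusted p = 3e-07), and Nqo1, a quinone reductase, 4.02-fold (adjusted p = 1.7e-07). The transferases Gsta1, Gsta2 and Gsta4 fell 2.42-fold, 2.80-fold and 3.75-fold, and the first 2 are close copies of each other. The 1 rise among 17 tested members was Cyp3a11, a cytochrome P450 (2.30-fold, adjusted p = 0.0039), and 10 fell.

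Regulators of apoptosis changed in both directions. Bax, a pore-forming executor of apoptosis, fell 3.09-fold, from 57.7 to 79 CPM to 17.0 to 25.4 CPM (adjusted p = 5.2e-05), and Casp8 fell 2.35-fold (adjusted p = 3.1e-05). Bcl2l11, which encodes Bim, a protein whose removal Erk signalling promotes, rose 1.90-fold (adjusted p = 0.0076, or 0.052 without Mi replicate 1). Its opponent Bcl2 rose 1.81-fold (adjusted p = 0.013), which became 0.063 without ENR replicate 3 and 0.087 without Mi replicate 3. Of 12 tested members 3 rose and 2 fell, and the rises numbered 1 without ENR replicate 3 or Mi replicate 1. Among genes that respond to growth factor withdrawal, Txnip, an inhibitor of thioredoxin and of glucose uptake, read 290, 312 and 312 CPM in ENR and 438, 638 and 605 CPM in Mi (1.84-fold, adjusted p = 0.00071), and 3 of 7 tested rose. The others were 8430408G22Rik, named Depp1 in RefSeq (3.03-fold, adjusted p = 0.0083, or 0.057 without Mi replicate 2), and Trp53inp1, an autophagy and p53 gene that also stands among the apoptosis rises (2.22-fold, adjusted p = 0.017, and 0.055 to 0.10 in 4 analyses that left out a library). In the endoplasmic reticulum list 4 of 15 rose, led by Bhlha15, the factor Mist1 of secretory cells (4.43-fold, adjusted p = 1.6e-05), and Herpud1, a factor in the degradation of misfolded proteins (2.51-fold, adjusted p = 1e-05). Irf1 was the 1 of 8 tested interferon genes that rose (2.59-fold, adjusted p = 9.1e-05), while H2-K1 read 901 to 928 CPM in ENR and 801 to 925 CPM in Mi. Of the M cell genes 3 were tested and 2 rose, Ccl20, a chemokine that draws lymphocytes (4.40-fold), and Spib, a transcription factor of M cells (5.53-fold).

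By size alone, the largest rises not yet named were Ccl6, a chemokine (7.11, 7.73 and 10.4 CPM in ENR, 278, 309 and 270 CPM in Mi), Krt4, a keratin of stratified epithelium, Tnfsf15, a TNF family cytokine, and the defensin genes listed as Gm14851 and Gm15315. Ccl6 rose 32.8-fold (adjusted p = 3.8e-14) and Tnfsf15 25.1-fold (adjusted p = 1.2e-07). Gm15315 had 3 counts over the ENR group and 65 over the Mi group, a ratio of 44.2 with a 95% counting interval of 14.5 to 220. The largest falls included 2610528A11Rik, named Gpr15l in RefSeq, the ligand of a lymphocyte homing receptor. It read 149, 147 and 130 CPM in ENR and 1.21, 0.0 and 3.94 CPM in Mi (change -6.17, SE 0.46, adjusted p = 1.7e-11). AA467197, a small protein gene named Nmes1 in RefSeq, went from 163, 102 and 125 CPM to 4.84, 1.54 and 2.63 CPM (39.2-fold lower, adjusted p = 9.1e-12). Rasa4, a GTPase-activating protein that turns Ras off, fell 20.6-fold, from 46.4 to 55.4 CPM to 0.0 to 4.63 CPM (adjusted p = 3.4e-08). Cyp2s1, a cytochrome P450, and Ndrg2, an N-myc downstream regulated gene, fell 16.6-fold and 15.0-fold. Gm2061 had 92 counts over the ENR group and 1 over the Mi group, a ratio of 45.1 with a counting interval of 7.89 to 1799.

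The pathway was blocked at the receptor for the same 96 h in the Ei libraries, and few genes were called different between the inhibitors. Both inhibitor groups were measured beside the same ENR libraries, and the Ei libraries were shallower, at 158135 to 554681 counts, and correlated with each other at 0.829 to 0.881. Directly between Mi and Ei, 88 of 8135 genes (1.08%) were called, 7 higher in Mi (0.086%) and 81 lower (0.996%), while 808 had an unadjusted p under 0.05. Dusp6 read 17.2, 18.6 and 14.1 CPM in Ei, between the ENR and the Mi libraries, and was not called different from Mi (log2 Mi over Ei -1.60, adjusted p = 0.31).

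The goblet genes supplied 5 of those calls, all lower in Mi, of 18 tested. Zg16 read 218, 229 and 240 CPM in Ei and 20.6, 21.6 and 31.6 CPM in Mi, so that Mi lay below ENR and Ei above it. Muc2 read 938, 998 and 588 CPM in Ei, above Mi (355 to 400 CPM), which in turn was above ENR (132 to 196 CPM). Guca2a showed the same order with 451, 409 and 653 CPM in Ei and 237 to 252 CPM in Mi (2.06-fold lower in Mi than in Ei, adjusted p = 0.0011). Spink4, a goblet protease inhibitor, read 1781, 1927 and 2355 CPM in Ei and 728 to 900 CPM in Mi (adjusted p = 0.00028). The differences of Zg16, Muc2, Guca2a and Clca1 kept their call in every alternative analysis that tested them.

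Among the hormones and amine genes 5 of 10 tested were lower in Mi than in Ei, whereas none of the 12 tested enteroendocrine factors was called. Gip read 244, 242 and 268 CPM in Ei against 95.8 to 132 CPM in Mi (adjusted p = 0.001). Sst read 163, 155 and 273 CPM in Ei against 72.6 to 98.1 CPM in Mi (adjusted p = 0.0067, or up to 0.11 in 2 of 12 alternative analyses). Ddc, which completes serotonin synthesis, was lower in Mi by 1.88-fold against Ei (adjusted p = 0.0063), Cck, cholecystokinin, 2.44-fold (adjusted p = 0.04), and Ghrl was lower with an adjusted p of 0.034 that was lost in 6 of 12 alternative analyses. Neurog3 read 90.9, 74.4 and 122 CPM in Ei and 91.1 to 154 CPM in Mi, with overlap. Chga read 386, 273 and 489 CPM in Ei and 214 to 333 CPM in Mi, also with overlap (log2 Mi over Ei -0.54, adjusted p = 0.31).

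In the Paneth list 3 of 12 tested genes were lower in Mi than in Ei, in the alpha-defensin list 3 of 10 and in the YAP list 3 of 9. None in these lists was higher. The Paneth calls of Mptx2, Itln1 and Mmp7 were lost in 7, 6 and 2 of 12 alternative analyses, while the defensin Defa21 kept its call in all 12. Metabolic genes were a further group, with 7 of 17 detoxification genes lower in Mi than in Ei. Gsta2 read 218, 223 and 197 CPM in Ei, 105 to 119 CPM in ENR and 39.4 to 41.7 CPM in Mi (5.21-fold lower in Mi than in Ei, adjusted p = 2.5e-07). Cyp3a11 was lower in Mi by 4.22-fold against Ei (adjusted p = 7.1e-05), so it stood above ENR and below Ei. Gsta4 read 777, 607 and 1175 CPM in Ei and 276 to 412 CPM in Mi (2.64-fold, adjusted p = 0.00078). In lipid synthesis Scd2 read 938, 992 and 658 CPM in Ei, between ENR and Mi (2.64-fold lower in Mi than in Ei, adjusted p = 0.00025), and Me1 read 90.9, 105 and 108 CPM (2.82-fold lower in Mi, adjusted p = 0.0016). Against Ei, Krt20 was lower in Mi by 2.93-fold (adjusted p = 0.0012). In the other direction Aadac, an arylacetamide deacetylase of enterocytes, read 36, 49.6 and 47.0 CPM in Ei, 122 to 150 CPM in Mi and 123 to 138 CPM in ENR (3.28-fold higher in Mi than in Ei, adjusted p = 0.0001). The urea cycle enzyme Cps1 and the ornithine aminotransferase Oat were each 1.93-fold higher in Mi than in Ei (adjusted p = 0.0077 and 0.0091). The rises of Arl6ip6, Epb4.1l3, Nlrp6 and Nr2e3 over Ei were lost in 7, 6, 6 and 6 of the alternative analyses.

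**Figure D4:**
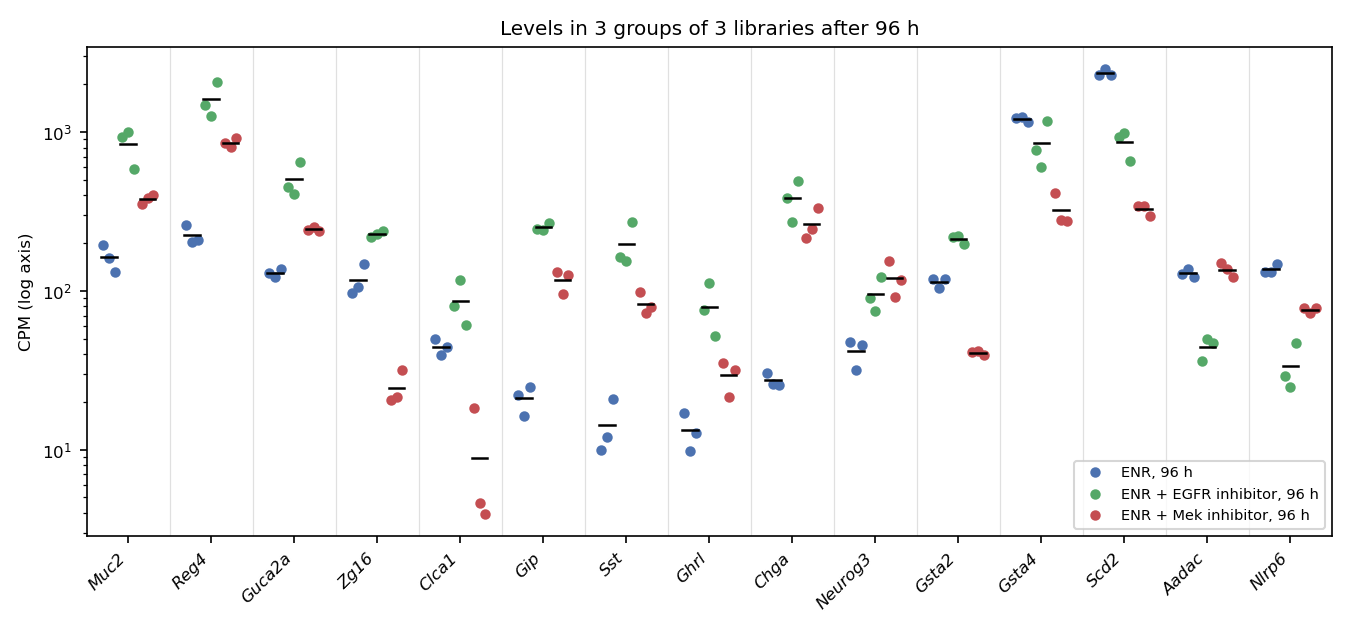
Scaled CPM on a log axis for 15 genes in the ENR, Ei and Mi libraries at 96 h, with 1 point a library and a black bar at the group mean. Zg16 is lowest in Mi and highest in Ei, Gsta2 falls from 197 to 223 CPM in Ei to 39.4 to 41.7 CPM in Mi, and Neurog3 overlaps between Ei and Mi.

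Compared with 6 h of the same treatment, the response at 96 h was alike for some genes and different for others. At 6 h 2166 of 9380 tested genes (23.1%) were called against that time's own ENR libraries, 958 higher (10.2%) and 1208 lower (12.9%). Levels at the 2 times come from separate scalings, and time coincides with the numbered library set, so time and set cannot be told apart. Of 7906 genes tested at both times, 273 were higher and 253 lower at both, 66 were higher at 6 h and lower at 96 h, and 22 the reverse. The response itself, Mi over ENR, differed between the times for 1330 of 10137 genes (13.1%), 566 with a higher response at 96 h (5.58%) and 764 with a lower one (7.54%).

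The feedback inhibitors of Erk were lower in Mi in 6 of 6 tested genes at 6 h, with a median change of -2.0, and in 3 of 4 at 96 h, with a median of -1.5. Dusp6 read 43.2, 44.7 and 37.9 CPM in ENR and 4.32, 2.64 and 4.6 CPM in Mi at 6 h, a change of -3.41 beside -3.65 at 96 h (adjusted p of the difference 0.84). Spred1 changed by -2.26 at 6 h and -2.06 at 96 h (adjusted p of the difference 0.90). The response was higher at 96 h for 2 of 7 feedback genes. Spry1 changed by -2.16 at 6 h and -0.94 at 96 h (adjusted p of the difference 0.045, lost in 13 of 18 alternative analyses), and Errfi1 by -0.76 and 0.51 (0.029, lost in 7 of 18). Among the genes that Erk induces, Jun rose at both times, by 0.97 at 6 h and 1.82 at 96 h, and that difference kept its call in all 18 (adjusted p = 0.0082, at most 0.033). Phlda1 and Myc changed by -1.52 and -1.21 at 6 h and by -1.54 and -1.23 at 96 h. Egr1 changed by -3.62 at 6 h and -1.95 at 96 h, with an adjusted p of 0.24 for the difference.

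The cell cycle changed in a different order. At 6 h 23 of 30 tested S phase genes and 1 of 26 G2 and mitosis genes were lower, with medians of -1.02 and 0.01, against medians of -0.27 and -1.27 at 96 h. The response of 23 of the 26 G2 and mitosis genes was lower at 96 h than at 6 h by the test of the difference. Plk1 read 84.0, 84.8 and 72.1 CPM in ENR and 59.6, 82.0 and 74.6 CPM in Mi at 6 h, where the groups overlapped. Ccnd1 read 209, 228 and 249 CPM in ENR and 105, 83.7 and 106 CPM in Mi at 6 h, a change of -1.22 beside 0.02 at 96 h (adjusted p of the difference 4.1e-05). Ribosome biogenesis genes were lower at 6 h in 20 of 21 cases, with a median of -1.37, and the response of 16 of 21 was higher at 96 h. Ncl read 1404 to 1486 CPM in ENR and 666 to 744 CPM in Mi at 6 h, against 778 to 856 CPM and 584 to 632 CPM at 96 h.

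Paneth, hypoxia, glycolysis and lipid genes moved further at 96 h. The Paneth list had a median of 0.50 at 6 h and 3.04 at 96 h, and the response was higher at 96 h for 10 of 12 tested. The hypoxia list had a median of -0.90 at 6 h with 9 of 13 lower, and the response of 10 of 14 was lower still at 96 h. Bnip3 read 91.3, 41.9 and 75.7 CPM in ENR and 70.8, 22 and 64.4 CPM in Mi at 6 h, where the groups overlapped. Glycolysis had a median of -0.48 at 6 h, and Gapdh was not called there (change -0.03, adjusted p = 0.91). Scd1 read 158, 201 and 134 CPM in ENR and 113, 151 and 167 CPM in Mi at 6 h, with overlap. Of 23 cholesterol genes 15 were already lower at 6 h, with a median of -0.79, and the response of 10 was lower at 96 h. In lipid absorption none of 15 genes was lower at 6 h and 3 were higher, and the response of 10 was lower at 96 h. Ribosomal protein genes had a median of 0.09 at 6 h, with 4 of 87 lower, and the response of 46 of 88 was lower at 96 h. Clu read 40.8, 50.1 and 67.7 CPM in ENR and 42.3, 49.4 and 35.0 CPM in Mi at 6 h, so that its rise was seen at 96 h and not at 6 h (adjusted p of the difference 8.8e-13). Levels in ENR, scaled separately at each time, differed too. At 96 h ENR read 327, 311 and 426 CPM for Bnip3 and 14.2, 9.14 and 9.81 CPM for Clu.

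**Figure D5:**
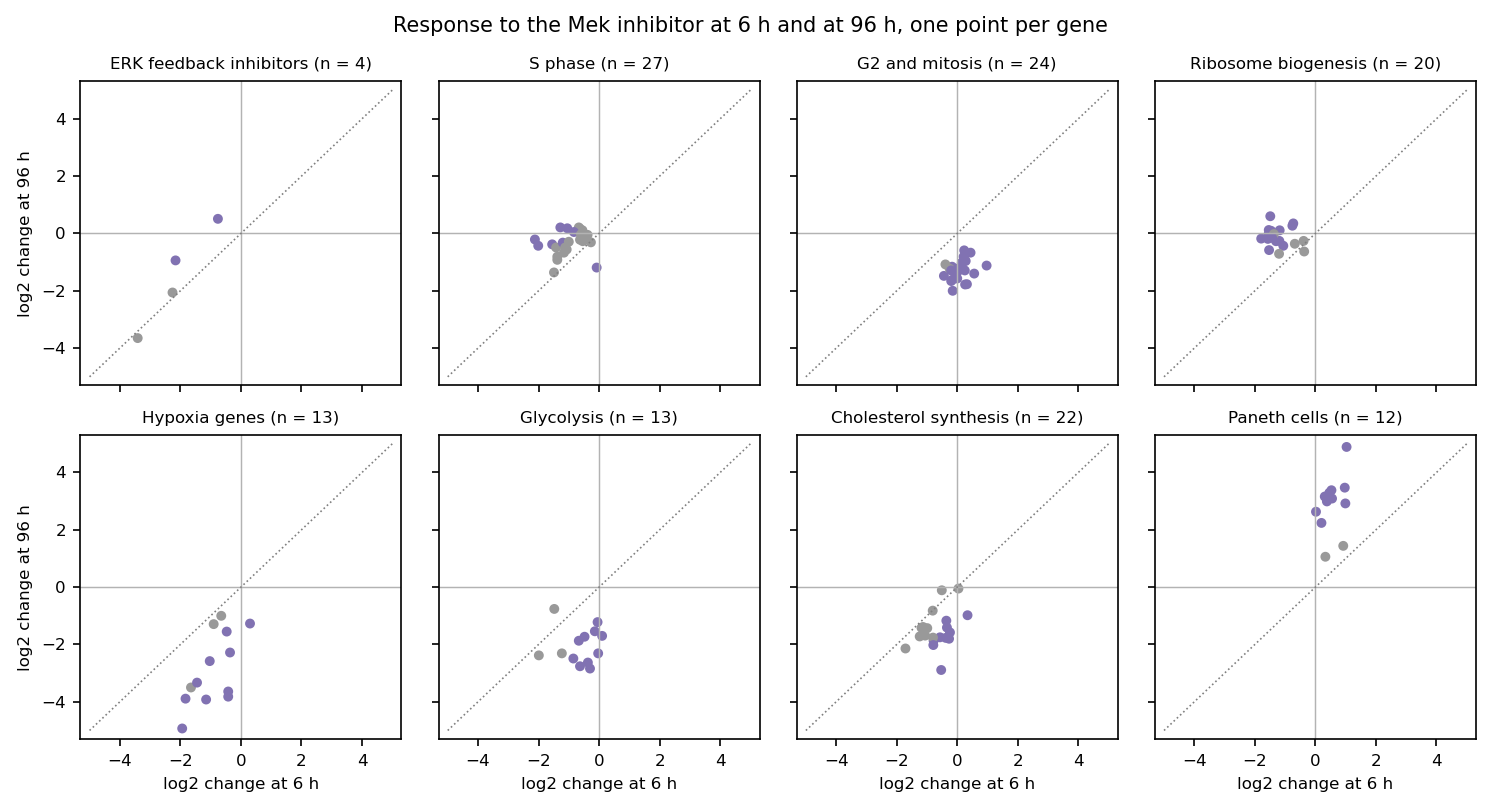
Log2 change of Mi over ENR at 6 h (x axis) and at 96 h (y axis) for the members of 8 gene lists tested at both times, with a dotted diagonal where the changes are equal. Purple points have a response that differed between the times at an adjusted p under 0.05, and most G2 and mitosis genes lie below the diagonal, most Paneth genes above it.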

How the data were processed

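Whole-organoid RNA was measured by CEL-seq on HiSeq2500 and NextSeq500 instruments, per the labels' protocols. The authors deposited whole-number counts per gene, 1 file a sample and 19017 genes over the whole-organoid libraries. The submitters' processing notes name BWA 0.6.2-r126 and mm10. The counting program, the annotation and any handling of molecular identifiers are not given in the sources used here, so counting intervals cover counting error only.

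Samples were grouped by their titles: ENR, Ei, Mi, and Wnt and Notch inhibition alone, with EGFR inhibition or with Mek inhibition, at each time. The 18 whole-organoid libraries of 96 h (6 groups of 3) were fitted together with edgeR 4.0.16 (limma 3.58.1, R 4.3.3): filterByExpr, TMM scaling, quasi-likelihood tests of Mi against ENR and Mi against Ei, and Benjamini-Hochberg adjustment over all genes tested, with calls at an adjusted p under 0.05. The 6 h groups had a fit of their own, and the difference between times came from a fit of all 36 libraries. On simulated counts drawn for Mi against ENR the fit recovered 62.9% of 89 genes changed 2-fold and 97.8% of 91 changed 4-fold among 7173 tested, and called 0.16% of unchanged genes. The simulation gave all groups the ENR mean and changed fewer genes than were called in the data. It changed no gene of very low ENR level, so the recovery does not cover such genes. DESeq2 1.42.0 was an alternative. Python 3.11.15 with pandas 2.3.3 and matplotlib 3.10.9 made the summaries and figures. Positions are from GENCODE M21, matched by name and chromosome, and promoters from RefSeq GRCm38.p6.

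Named genes were 8 markers followed across the series, up to 6 members of each list by smallest adjusted p and any at 0 in a whole group, and the 10 largest changes each way (5 for the other comparisons) where the higher group averaged 20 CPM or more and groups did not overlap. Genes named to complete a count of 5 or fewer, Klf4, Cd36, Ly6a, Cyp3a11, Cps1, Oat, Spink4, Ddc and Cck, and Dusp4, below the filter, were chosen after their values were seen. The comparison and the lists were chosen with earlier results of these data known. Alternatives were other scalings, no filter, DESeq2, fewer groups in the fit, a replicate block, each replicate left out, libraries thinned to 605964 counts and, added after seeing the data, leaving out Rn45s. Results on some genes are not reported here. No 2 libraries of a group described here agreed within sampling noise.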

Additional observations from a re-analysis of the deposited data

Results flagged for a closer look

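The response to the Mek inhibitor differed between 6 h and 96 h for 1330 genes by the test of the difference itself (edgeR, Benjamini-Hochberg adjusted p under 0.05 over 10137 genes), and 19 of the genes named here stand out by it. Each value below is the log2 response at 96 h minus that at 6 h, with the responses at the times in brackets. Time and numbered library set cannot be told apart in these differences.

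Of these genes, 10 were called in opposite directions at the times. Higher at 6 h and lower at 96 h were Zg16 with -2.71 (0.44, then -2.24), Npc1l1 with -1.95 (0.62, then -1.30), Aqp4 with -1.78 (0.84, then -0.92), Nlrp6, an innate immune sensor of the epithelium, with -1.35 (0.47, then -0.85), Cpt1a, the gate of mitochondrial fatty acid oxidation, with -1.24 (0.55, then -0.66) and Ndufa6 of complex I with -1.09 (0.47, then -0.59). Lower at 6 h and higher at 96 h were Cyp2c29, a cytochrome P450, with 4.19 (-0.56, then 3.64), Tac1 with 2.93 (-0.96, then 1.99), Anxa1 with 1.91 (-0.79, then 1.14) and Bcl2 with 1.45 (-0.61, then 0.85). The 6 h calls were not put through the alternative analyses. Some of these genes rest on a 96 h call that was lost in alternative analyses. That of Cpt1a was lost in 5 (adjusted p 0.058 to 0.13), among them those without ENR replicate 2, ENR replicate 3, Mi replicate 1 or Mi replicate 3. That of Ndufa6 was lost without ENR replicate 1 (0.061) and Mi replicate 2 (0.078), and that of Aqp4 without ENR replicate 1 (0.052) and with thinned libraries (0.12). That of Bcl2 was lost without ENR replicate 3 (0.063), without Mi replicate 3 (0.087) and with thinned libraries (0.059). Zg16 read 297, 368 and 307 CPM in ENR and 488, 462 and 366 CPM in Mi at 6 h, a rise of which the lowest Mi library lay just under the highest ENR library. Tac1 read 35.9, 27.3 and 26.9 CPM in ENR and 15.6, 16.7 and 13.8 CPM in Mi at 6 h, with no overlap. Over all genes 88 showed this pattern.

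The other flagged genes moved at 96 h with a 6 h response that was not called. Larger rises at 96 h were Reg3b with 8.63 (0.44, then 8.49; these are fitted values for a gene at 0 in ENR at 96 h and are no bound), Thbs1 with 4.73 (0.78, then 5.50), Clu with 4.40 (-0.33, then 4.09) and Pax4 with 4.07 (-0.39, then 3.66). Larger falls were 2610528A11Rik with -6.06 (-0.17, then -6.17), AA467197 with -5.29 (-0.05, then -5.29), Cyp2s1 with -4.61 (0.51, then -4.05), Cox7a1 of complex IV with -4.28 (0.18, then -3.94; 44 counts over ENR and 1 over Mi) and Scd1 with -4.14 (-0.19, then -4.31). The adjusted p of these differences ran from 4.2e-13 for Scd1 to 0.0021 for Pax4, whose difference was 3.33 without ENR replicate 3 at 6 h (adjusted p = 0.052).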

How the results depend on the processing

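The 1894 genes called between Mi and ENR at 96 h were 1664 with DESeq2, 2131 without the filter, 1913 with DESeq2's size factors and 2251 with only the 6 libraries compared, and 1399 to 1642 when 1 library was left out. The share called higher, 49.3%, was 44.0% at its lowest, when scaling left out the Paneth and defensin genes. Every gene called both in the main analysis and in one of these alternatives kept its direction, and no named result reversed. Between Mi and Ei the 88 genes were 53 with only the groups compared and 56 to 85 when 1 library was left out, where Ei replicate 3 gave 58, Mi replicate 2 gave 56 and Mi replicate 3 gave 58. The 1330 genes whose response differed between times were 1015 to 1177 when 1 library was left out. The cause of these shifts was not tested. Deviations of same-numbered ENR and Mi libraries correlated at -0.018, 0.005 and -0.095, and those of differently numbered ones at -0.124 to 0.144. With 3 libraries a group, these values do not show whether the libraries were paired. With the replicate block the counts were 1865, 81 and 1313. Depth limits the lists of rare cell types: 14 of 26 tuft genes and 10 of 25 granin and exocytosis genes were under the filter.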
